A study of Mus musculus with 6 samples.

Results

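Vitronectin (*Vtn*) and the genes through which cells bind it formed a group of 9 among the 33460 genes in the RNA-seq files. They were taken by name, with earlier results of these data known. The group holds *Vtn* itself, the integrin subunits *Itgav*, *Itgb1*, *Itgb3*, *Itgb5*, *Itgb6* and *Itgb8*, urokinase (*Plau*) and the urokinase receptor (*Plaur*). The study that reported these data had picked *Vtn* as a marker by its specificity and abundance in them. Its higher level in mural cells is therefore not an independent result here. All 9 were present in the files. RNA had been collected at postnatal day 6 from the brains of 3 mice that carried both the *Pdgfrb-eGFP* and the *NG2-DsRed* transgene. From 1 side of each brain, cells positive for both reporters were FACS sorted (3 mural cell samples), and from the other side microvascular fragments were captured with anti-CD31 magnetic beads (3 fragment samples). Both groups therefore carried both transgenes, eGFP under control of *Pdgfrb* sequences and DsRed under control of *NG2* sequences, and the labels name no treatment. The fragments hold endothelial cells (EC) together with the mural cells attached to them, so the comparison sets mural cells against a mixture that contains them. The labels do not tie the sample numbers to animals, and p-values below measure the spread between these samples.

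Vitronectin is an adhesive glycoprotein of plasma and extracellular matrix. Cells attach to it through integrins, receptors built of an α and a β subunit, and the αv subunit pairs with β1, β3, β5, β6 or β8 to read the Arg-Gly-Asp motif in vitronectin and in other ligands. Close to that motif lies the somatomedin B domain, where the urokinase receptor binds, so vitronectin joins cell adhesion to the proteases that turn plasminogen into plasmin.

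Both contacts lie side by side in the coding sequence of *Vtn*, which encodes 478 residues. The first sequence shows the 44 codons before the Arg-Gly-Asp motif, 8 of them for cysteine, with the motif codons in capitals (residues 64 to 66). It lies at chr11:78312909-78313216 on the plus strand of NCBIM37 and spans coding exons 1 to 3. The Arg-Gly-Asp windows of *Mfge8*, *Tgfb3*, *Fn1*, *Spp1* and *Npnt*, other ligands of αv integrins whose levels are given further on, follow with 12 bases on each side of the motif, which starts at residue 87, 261, 1614, 145 and 430. Of the 2 motifs of *Fn1* the first is shown.
Vtn: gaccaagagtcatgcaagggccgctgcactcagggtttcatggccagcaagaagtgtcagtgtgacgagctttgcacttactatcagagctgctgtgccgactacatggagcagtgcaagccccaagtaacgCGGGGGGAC
Mfge8: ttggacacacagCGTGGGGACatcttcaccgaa
Tgfb3: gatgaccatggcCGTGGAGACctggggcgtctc
Fn1: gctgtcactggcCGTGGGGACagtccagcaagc
Spp1: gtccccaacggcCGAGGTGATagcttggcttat
Npnt: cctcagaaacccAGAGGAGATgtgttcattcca
The sequences come from GENCODE M1 transcripts of NCBIM37. Arg-Gly-Asp codons were found in 1535 of 21734 coding sequences searched (7.06%) and in 12 of the 19 other ligands. A match is a run of codons only, since 8 of 26 integrin subunits, which are receptors, also held one.

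Levels are given as FPKM, the number of sequenced fragments on a gene scaled to its exon length and to the depth of the library. The fragment libraries held 5.44 to 5.96 M fragments on protein-coding genes and the mural cell libraries 1.04 to 2.37 M, as recovered from the steps of the low FPKM values. All 10 mural cell markers examined were higher in the sorted cells. Among them were *Pdgfrb* and *Cspg4* (NG2), the genes of the reporters used for sorting, so their rise was set by the design. None of the 8 astrocyte, 5 oligodendrocyte progenitor and 6 neuron markers tested was called higher or lower. Their medians stood at 133%, 130% and 70.0% of the fragment level. Of 12 EC markers 2 were lower, and the median EC marker still stood at 68.5% of its fragment level, with sums of 1671 to 2178 FPKM in the sorted cells and 2303 to 2679 FPKM in the fragments. All 8 microglia markers were lower (sums of 161 to 202 FPKM against 1773 to 2117 FPKM). Of 5 fibroblast markers the 4 tested were higher (sums of 326 to 393 FPKM against 29.0 to 35.4 FPKM). Most of the mural cell sum came from *Col1a1* and *Col1a2*, with means of 111 and 221 FPKM. *Col1a2* is also in the study's own catalogue of mural cell-enriched genes, so it does not set fibroblasts apart from mural cells. *Col1a1*, *Dcn* and *Lum* are not in that catalogue. Means of *Dcn* and *Lum* were 29.3 and 7.80 FPKM in mural cells against 3.99 and 1.26 FPKM in fragments. *Dpt* was not tested and stood at 0 in every library but mural cell replicate 1 (0.393 FPKM). In these bulk samples fewer cells of a type and less RNA per cell cannot be told apart, and the part of these other cell types in the results below was not tested.

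Of the 9 genes, 8 passed the filter on low values (3 or more libraries at or above 1 FPKM), 2 were called higher in mural cells (*Vtn* and *Itgav*) and 1 was called lower (*Plaur*). A call required an adjusted p under 0.05 in limma and a ratio of mean FPKM above 2 or under 0.5. Over all 14801 genes tested, 6.43% were called higher and 10.1% lower. By the adjusted p alone 3 of the 8 were higher and 2 lower, against 9.34% and 13% of all genes. The median log2 fold change of the 8 genes was -0.31, against -0.12 over all genes tested. The ranges of the groups did not overlap for 6 of the 8 tested genes, and they did not overlap for 40.9% of all genes tested.

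**Figure D1:**
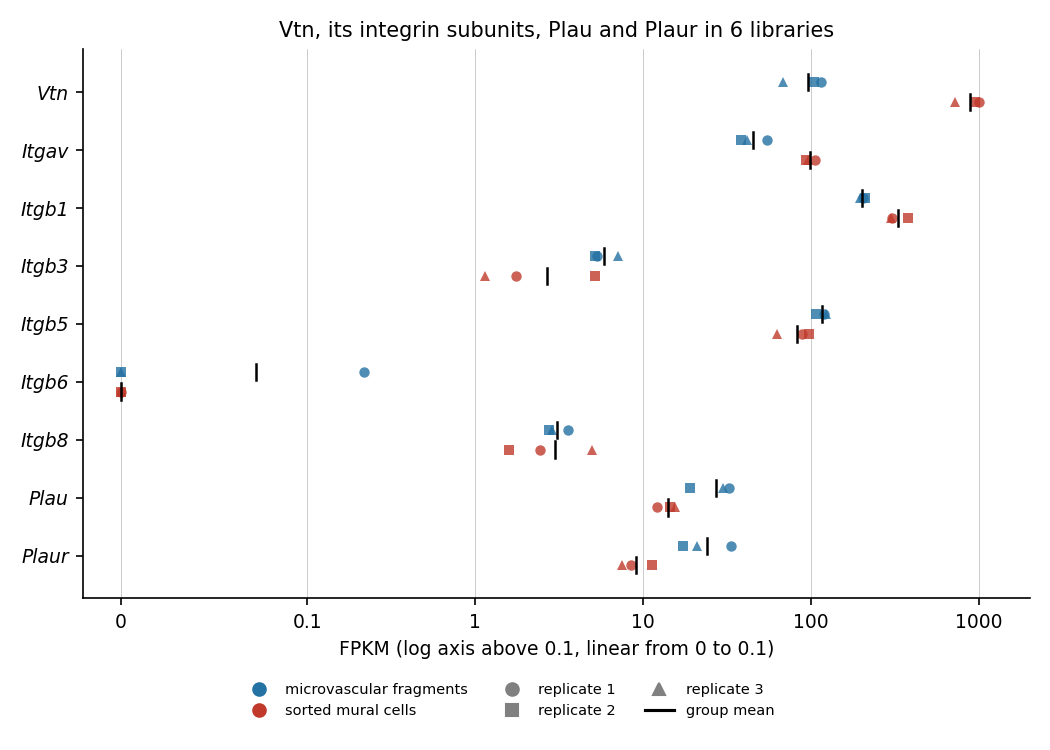
FPKM of the 9 genes in each library (log axis above 0.1), with microvascular fragments in blue, sorted mural cells in red, symbols for replicates and black bars for group means. *Vtn* stood between 715 and 999.8 FPKM in mural cells and between 67.9 and 114 FPKM in fragments, while the groups overlapped for *Itgb3*, *Itgb6* and *Itgb8*.

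The ligand showed the largest difference of the group. *Vtn* (ENSMUSG00000017344, chr11:78312593-78315826) stood at 999.8, 939 and 715 FPKM in mural cell replicates 1, 2 and 3 and at 114, 103 and 67.9 FPKM in fragment replicates 1, 2 and 3. The lowest mural cell library thus lay far above the highest fragment library. Mean *Vtn* was 885 ± 150 FPKM (SD, n = 3) in mural cells and 95.05 ± 24.1 FPKM (SD, n = 3) in fragments, a ratio of 9.31. Its log2 fold change was 3.22 ± 0.22 (SE, limma, adjusted p = 0.000149). By mean FPKM *Vtn* ranked 18 among the 14801 genes tested in mural cells and 672 in fragments.

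The genes whose course over the 6 libraries was most like that of *Vtn* were *S1pr3*, a sphingosine 1-phosphate receptor, *Pdgfrb*, the PDGF-B receptor whose regulatory sequences drive the eGFP reporter, *E130203B14Rik*, *Lamc3*, a laminin γ chain, and *Cd248*, the pericyte antigen endosialin. Likeness was measured over 6 samples as the root mean square difference between centred log2(FPKM + 1) values, among 8508 genes with a mean FPKM of at least 10. The differences were 0.083, 0.10, 0.11, 0.13 and 0.15 log2 units. Values were centred over both groups together, so this measure follows mainly how close a gene's ratio between groups is to that of *Vtn*. The median over all genes compared was 1.67, which largely reflects the high ratio of *Vtn* itself. Their ratios of mural cell to fragment FPKM were 9.47, 9.81, 9.80, 9.64 and 9.52. *Pdgfrb* was measured at 461, 474 and 401 FPKM in mural cells and at 54.8, 46.8 and 34.6 FPKM in fragments. In both *Pdgfrb* and *Vtn*, replicate 3 was the lowest library of each group.

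Among the receptors, *Itgav* (ENSMUSG00000027087, chr2:83564554-83647073), the αv chain that pairs with each β subunit of the group, was higher in mural cells. It was measured at 106, 93.4 and 95.9 FPKM in mural cells and at 54.5, 38.2 and 41.5 FPKM in fragments, with no overlap. The ratio was 2.197 and the log2 fold change 1.13 ± 0.15 (SE, limma, adjusted p = 0.00213). The opposite-strand gene *Gm13684* shares 634 exon bases with *Itgav*. Its mean was 2.22 FPKM in fragments and 0.843 FPKM in mural cells.

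*Itgb1* (ENSMUSG00000025809, chr8:131209554-131257100) encodes β1, which pairs with αv and with many other α chains. It was the most abundant of the β subunits in every library, at 304, 378 and 300.5 FPKM in mural cells and at 202, 208 and 195 FPKM in fragments. The groups did not overlap, and the log2 fold change of 0.69 ± 0.12 (SE, limma, adjusted p = 0.00751) passed the test, but the ratio of 1.62 stayed under the 2-fold limit.

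*Itgb5* (ENSMUSG00000022817, chr16:33829751-33949239) encodes β5, which pairs only with αv. It stood at 88.5, 96.5 and 62.4 FPKM in mural cells and at 120, 106 and 123 FPKM in fragments. Every mural cell library lay below every fragment library, yet the log2 fold change of -0.51 ± 0.18 (SE) did not pass the test (limma, adjusted p = 0.0779), and its 95% confidence interval ran from -0.93 to -0.10. Without mural cell replicate 2 the adjusted p was 0.0476 (limma).

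*Itgb3* (ENSMUSG00000020689, chr11:104469370-104531790) encodes β3, the chain of the classical vitronectin receptor and, with αIIb, of the platelet fibrinogen receptor. It was low in both groups, at 1.75, 5.14 and 1.14 FPKM in mural cells and at 5.30, 5.13 and 7.09 FPKM in fragments. Mural cell replicate 2 lay within the range of the fragments and the other two below it. These values rest on approximately 17, 21 and 5 fragments in mural cells and 134, 120 and 182 in the fragment libraries. The log2 fold change was -1.04 ± 0.42 (SE, limma, adjusted p = 0.125), and without mural cell replicate 2 it was -1.48 with an adjusted p of 0.0151 (limma) and a ratio of 0.247, which met the call. Platelet markers summed to 11.1 to 19.2 FPKM in mural cells and 35.5 to 51.5 FPKM in fragments. Of these 5 markers 1 of 4 tested was higher and 1 was lower. Most of the fragment sum was *Pf4*, with a mean of 36.9 FPKM in fragments and 2.58 FPKM in mural cells. *Gp1bb* went the other way, from 2.70 FPKM in fragments to 10.5 FPKM in mural cells. The means of *Gp9* and *Ppbp* were lower in mural cells. *Gp5* was at 0 in every mural cell library and averaged only 0.410 FPKM in fragments.

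*Itgb8* (ENSMUSG00000025321, chr12:120396495-120477275) encodes β8, known for its role in brain vessel development through the activation of latent TGF-β. It was measured at 2.42, 1.58 and 4.95 FPKM in mural cells and at 3.55, 2.74 and 2.84 FPKM in fragments, so the mural cell libraries lay on both sides of the fragments. No difference was detected at this depth (log2 fold change -0.11 ± 0.36, SE, limma, adjusted p = 0.864), with a 95% confidence interval from -0.95 to 0.74. The direction turned to 0.24 under quantile normalization and to 0.16 without mural cell replicate 2. Mural cell replicate 3, the highest for *Itgb8*, also had the highest sum of 8 astrocyte markers (983 FPKM, against 351 and 299 FPKM in mural cell replicates 1 and 2 and 387 to 559 FPKM in fragments). Without this replicate the log2 fold change was -0.44 (limma, adjusted p = 0.323).

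*Itgb6* (ENSMUSG00000026971, chr2:60436349-60560700) encodes the epithelial subunit β6. It was listed at 0 in 5 of the 6 libraries and at 0.217 FPKM, about 5 fragments, in fragment replicate 1. It was therefore not tested. A count of 0 allows up to 3 fragments, or 0.367, 0.876 and 0.825 FPKM in mural cell replicates 1, 2 and 3, by counting error alone.

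The make-up of the αv partners was then set side by side within each library, which does not depend on the scale between libraries. As a share of the summed FPKM of the 5 β subunits, *Itgb1* made up 76.7, 78.5 and 81.4% in the mural cell replicates, compared with 61.1, 64.6 and 59.5% in fragments. For *Itgb5* the shares were 22.3, 20.1 and 16.9% in mural cells, compared with 36.2, 33.0 and 37.5% in fragments. Both shares were separate between the groups, and so was that of *Itgb3*, with means of 0.606% and 1.78%. The exact two-sided permutation test gave p = 0.1 for each of these 3, which is the smallest p that 3 against 3 samples allow, and 0.167 after adjustment over the 5 shares. The share of *Itgb8* averaged 0.760% in mural cells and 0.930% in fragments (exact permutation p = 0.7). The shares of a library have a fixed sum, so the higher share of *Itgb1* and the lower share of *Itgb5* are not independent results. These shares describe mRNA and not the dimers formed, since β1 also pairs with other α chains.

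**Figure D2:**
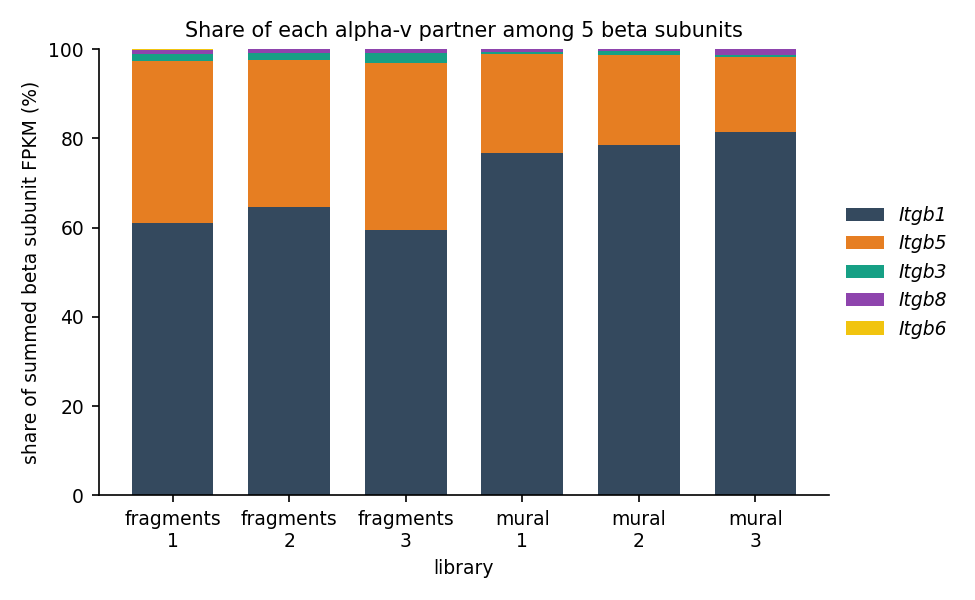
Share of each of the 5 β subunits in their summed FPKM, in percent, for every library (stacked bars from 0 to 100). The mean share of *Itgb1* was 78.9% for mural cells against 61.7% for fragments, and *Itgb5* averaged 19.8% and 35.6%.

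*Itgav* mRNA was compared with that of *Itgb5*, its dedicated partner, in the same manner. In mural cell replicates the ratio of *Itgav* to *Itgb5* FPKM was 1.19, 0.967 and 1.54, while fragments gave 0.455, 0.359 and 0.338. The means were 1.23 ± 0.29 and 0.384 ± 0.062 (SD, n = 3 per group, exact two-sided permutation p = 0.1, the smallest possible). *Itgav* was thus close to or above *Itgb5* in every mural cell library and well below it in every fragment library.

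On the protease side, *Plau* (ENSMUSG00000021822, chr14:21655884-21662610), the secreted urokinase that cleaves plasminogen, was measured at 12.1, 14.4 and 15.4 FPKM in mural cells and at 32.5, 19.0 and 29.7 FPKM in fragments. These values correspond to 46, 23 and 26 fragments in mural cells and 319, 172 and 296 in the fragment libraries. The groups did not overlap, and the log2 fold change was -0.88 ± 0.23 (SE, limma, adjusted p = 0.0317). The ratio of 0.517 stayed just short of the 2-fold limit. It crossed that limit, with the adjusted p kept under 0.05, without fragment replicate 2 (ratio 0.4499) or mural cell replicate 3 (ratio 0.491). Leaving out any 1 of the other 4 libraries raised the adjusted p (limma) above 0.05, to 0.127 and 0.125 without fragment replicates 1 and 3 and to 0.0760 and 0.0554 without mural cell replicates 1 and 2.

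*Plaur* (ENSMUSG00000046223, chr7:25247519-25260892), the membrane-anchored urokinase receptor that also binds vitronectin, was lower in mural cells. It stood at 8.51, 11.2 and 7.43 FPKM in mural cells and at 33.4, 17.1 and 21.0 FPKM in fragments, on 18, 10 and 7 against 184, 87 and 117 sequenced fragments. The highest mural cell library lay below the lowest fragment library. The ratio was 0.380 and the log2 fold change -1.27 ± 0.28 (SE, limma, adjusted p = 0.0162). The call was lost without fragment replicate 1 (limma, adjusted p = 0.0554) or fragment replicate 3 (limma, adjusted p = 0.0568). Both *Plau* and *Plaur* moved in the same direction as the 8 microglia markers, whose median stood at 8.59% of the fragment level. The 12 EC markers had a median of 68.5% and ratios from 0.353 (*Ly6c1*) to 1.29 (*Esam*). The part of either cell type in the *Plau* and *Plaur* values was not tested.

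Ordered by mean FPKM, mural cells had *Vtn* first, then *Itgb1*, *Itgav*, *Itgb5*, *Plau*, *Plaur*, *Itgb8*, *Itgb3* and *Itgb6*. The ranges of neighbours overlapped for *Itgav* and *Itgb5* and for *Itgb8* and *Itgb3*. In fragments the order was *Itgb1*, *Itgb5*, *Vtn*, *Itgav*, *Plau*, *Plaur*, *Itgb3*, *Itgb8* and *Itgb6*, with overlap of *Itgb5* and *Vtn* and of *Plau* and *Plaur*. *Vtn* exceeded *Itgb1* in mural cells and lay below it in fragments.

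**Figure D3:**
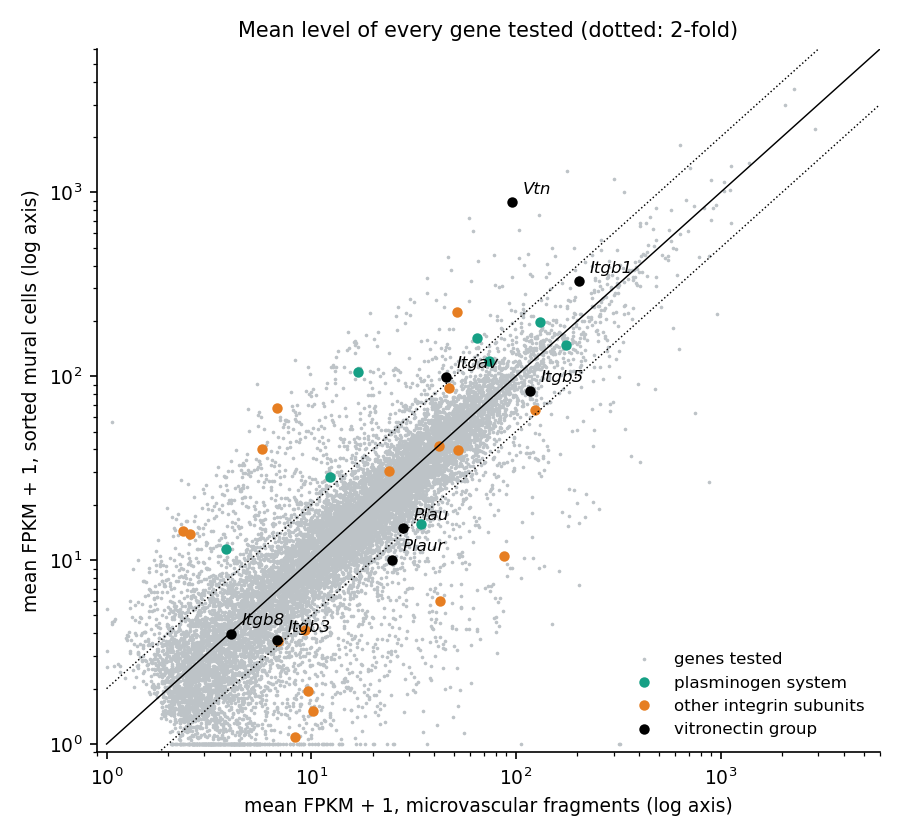
Mean FPKM + 1 of each of the 14801 genes tested in fragments (x, log axis) and mural cells (y, log axis), with the 8 tested genes of the vitronectin group in black, 8 plasminogen system genes in green and 17 other integrin subunits in orange. *Vtn* lay far above the upper dotted 2-fold line with a ratio of 9.31, and *Plaur* lay below the lower line at 0.380.

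Among 12 other genes of the plasminogen system, 9 were tested, 4 were called higher in mural cells and 1 lower. Over all genes tested 6.43% were called higher and 10.1% lower. The median log2 fold change of the 9 was 0.73, against -0.12 over all genes tested.

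*Plat*, the tissue-type plasminogen activator, was higher in mural cells, in contrast to the values of *Plau*. It stood at 179, 173 and 130 FPKM in mural cells and at 75.8, 60.7 and 54.1 FPKM in fragments, a ratio of 2.53 (log2 fold change 1.32 ± 0.18, SE, limma, adjusted p = 0.00201). In mural cells the ratio of *Plat* to *Plau* FPKM was 14.7, 12.03 and 8.42, while fragments gave 2.34, 3.20 and 1.82 (exact two-sided permutation p = 0.1, the smallest possible). *Plat* exceeded *Plau* in every library, and the groups were separate.

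*Mrc2*, an endocytic collagen receptor that associates with the urokinase receptor, stood at 118, 93.6 and 103 FPKM in mural cells and at 16.1, 17.8 and 13.8 FPKM in fragments. Its log2 fold change was 2.65 ± 0.15 (SE, limma, adjusted p = 8.47e-05), the largest of this list. The other two called higher were *Serpini1*, the neuroserpin that inhibits tissue-type plasminogen activator, with a ratio of 3.67 (limma, adjusted p = 0.0367), and *S100a10*, a plasminogen-binding partner of annexin A2, with a ratio of 2.41 (limma, adjusted p = 0.0236). Each of these calls was lost when any 1 of the 5 libraries other than mural cell replicate 1 was left out. *S100a10* rested on about 15, 12 and 12 sequenced fragments in mural cells.

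*Anxa2*, annexin A2, and *Serpine2*, protease nexin 1, passed the test under the 2-fold limit, with ratios of 1.66 (limma, adjusted p = 0.00348) and 1.52 (limma, adjusted p = 0.0200). *Plgrkt*, a plasminogen receptor with a C-terminal lysine, was lower, at 11.1, 16.4 and 16.7 FPKM in mural cells and 30.1, 36.4 and 33.8 FPKM in fragments (ratio 0.442, limma, adjusted p = 0.00539). The mural cell values rest on about 16, 10 and 11 sequenced fragments. *Lrp1*, an endocytic receptor that takes up plasminogen activators, averaged 146 FPKM in mural cells and 174 FPKM in fragments (ratio 0.841, limma, adjusted p = 0.189). *Plg*, plasminogen itself, was listed at 0 in all 6 libraries.

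Of the 20 other integrin subunits, 17 were tested, 5 were called higher in mural cells and 6 lower. These counts stand beside 6.43% and 10.1% of all genes tested. The median log2 fold change of the 17 was -0.40, and that of all genes tested was -0.12. The 5 that were higher were *Itga7*, a laminin receptor chain of muscle (ratio 11.3), *Itga11* (9.87) and *Itga10* (8.35), both collagen receptor chains, *Itga8*, a chain that binds Arg-Gly-Asp ligands (8.35), and *Itga1*, a collagen and laminin receptor chain (4.37). *Itga1* was the most abundant of them, at 223, 243 and 198 FPKM in mural cells and 54.9, 53.7 and 43.4 FPKM in fragments. *Itga7* stood at 48.9, 83.5 and 65.3 FPKM in mural cells and at 5.57, 6.53 and 5.41 FPKM in fragments. *Itga8* stood at 22.4, 58.0 and 37.9 FPKM in mural cells and at 4.08, 5.30 and 4.76 FPKM in fragments. None of these ranges overlapped.

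The 6 that were lower were *Itgam*, *Itgb2*, *Itgax*, *Itgal*, *Itgb4* and *Itga2b*. Apart from *Itgb4* and *Itga2b* these are chains of leukocyte integrins. *Itgam* stood at 6.497, 3.10 and 19.0 FPKM in mural cells and at 79.0, 84.6 and 96.6 FPKM in fragments (ratio 0.110, limma, adjusted p = 0.00351). *Itgb2*, its partner, stood at 9.30, 2.42 and 3.21 FPKM in mural cells and at 36.6, 43.6 and 44.7 FPKM in fragments (ratio 0.120, limma, adjusted p = 0.00190). The microglia markers given above fell with them. *Itgax* was listed at 0 in 2 mural cell libraries and at 0.294 FPKM in the other, against 4.58, 6.09 and 11.5 FPKM in fragments.

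*Itgb4*, the partner of α6 in laminin receptors, stood at 0.105, 0.749 and 0.666 FPKM in mural cells and at 13.6, 9.43 and 4.62 FPKM in fragments (log2 fold change -2.68 ± 0.41, SE, limma, adjusted p = 0.00366). *Itga6*, the α6 chain, passed the test short of the 2-fold limit, at 68.0, 58.6 and 67.1 FPKM in mural cells and 116, 112 and 140 FPKM in fragments (ratio 0.527, limma, adjusted p = 0.00269). *Itga4*, the α4 chain, passed it in the other direction (ratio 1.85, limma, adjusted p = 0.00467). *Itga2b*, the platelet αIIb chain and the other α partner of β3, had a ratio of 0.381 (limma, adjusted p = 0.0454), and leaving out any library but fragment replicate 2 ended its call.

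**Figure D4:**
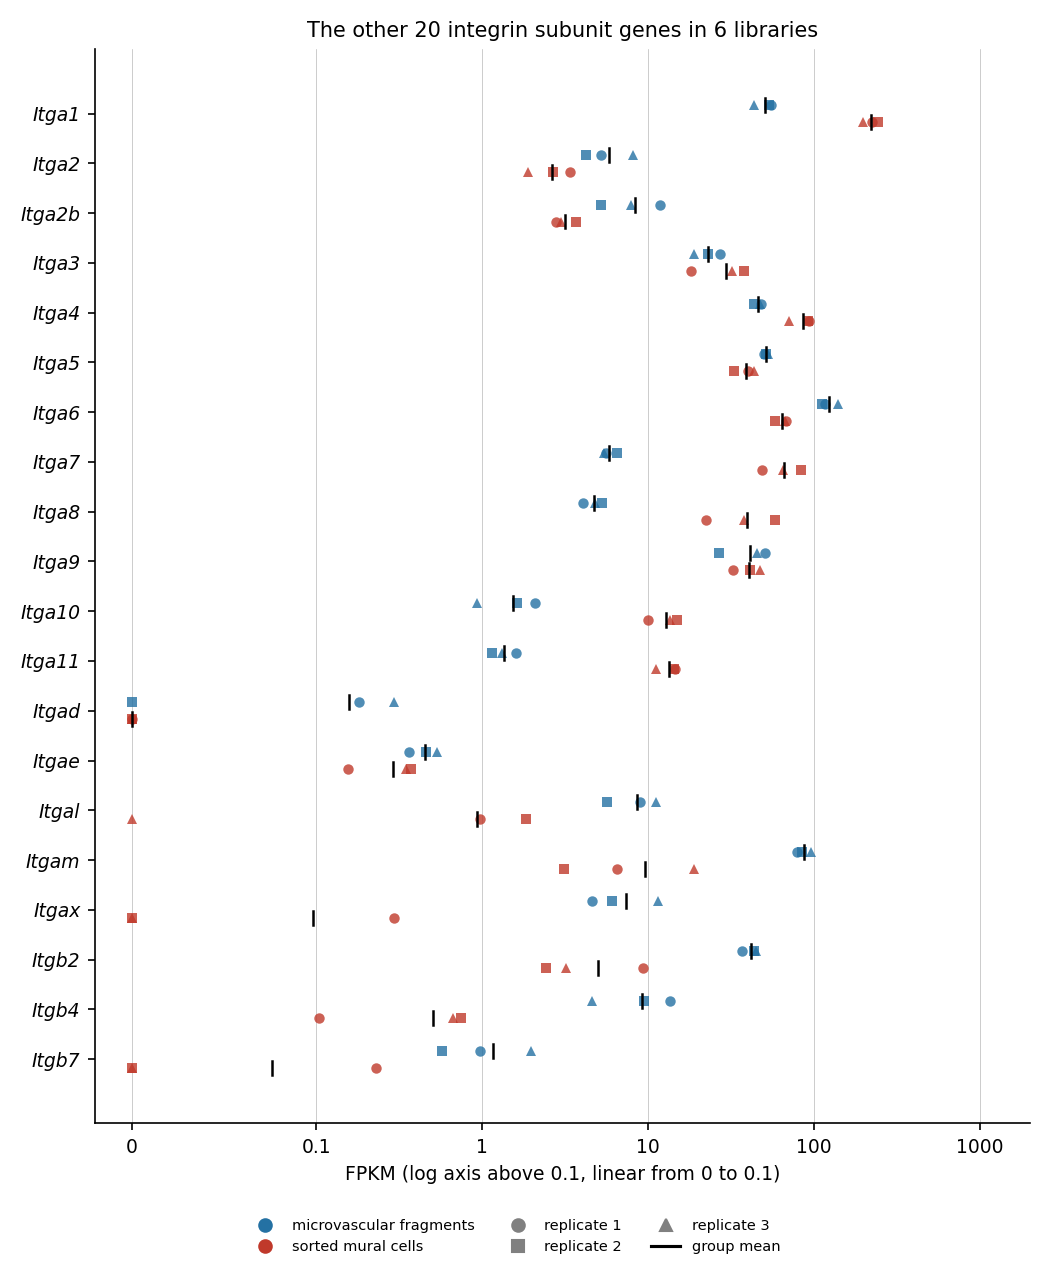
FPKM of the other 20 integrin subunit genes in each library (log axis above 0.1), with microvascular fragments in blue, sorted mural cells in red and black bars for group means. *Itga1*, *Itga7*, *Itga8*, *Itga10* and *Itga11* were separate and higher in mural cells, and *Itgam*, with 3.10 to 19.0 FPKM in mural cells and 79.0 to 96.6 FPKM in fragments, was separate and lower.

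The αv integrins also bind other matrix proteins, and 19 such ligands were examined. Of these, 14 were tested, 5 were called higher in mural cells and 3 lower, against 6.43% and 10.1% of all genes tested. The median log2 fold change of the 14 was -0.16, close to the -0.12 of all genes tested. *Mfge8*, the milk fat globule protein that bridges αv integrins to phosphatidylserine, stood at 266, 343 and 324 FPKM in mural cells and at 71.3, 86.1 and 76.5 FPKM in fragments (log2 fold change 1.98 ± 0.14, SE, limma, adjusted p = 0.000149). *Tgfb3*, whose latent form carries the motif shown above, stood at 30.3, 58.2 and 58.6 FPKM in mural cells and at 7.70, 6.98 and 5.54 FPKM in fragments (ratio 7.27, limma, adjusted p = 0.000742).

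The other three called higher, *Postn* (periostin, ratio 6.88), *Nov* (CCN3, ratio 5.65) and *Ctgf* (CCN2, ratio 2.08), held no Arg-Gly-Asp codons in the sequences searched. *Postn* stood at 123, 108 and 97.4 FPKM in mural cells and at 15.3, 17.0 and 15.5 FPKM in fragments (limma, adjusted p = 8.09e-05). The tested fibroblast markers given above moved with it, but so did the mural cell markers. The call of *Ctgf* was lost without fragment replicate 3 (limma, adjusted p = 0.0553) and by the 2-fold limit without mural cell replicate 2 (ratio 1.87).

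*Spp1*, osteopontin, was lower in mural cells, at 45.5, 17.8 and 36.3 FPKM against 297, 178 and 739 FPKM in fragments (log2 fold change -3.41 ± 0.54, SE, limma, adjusted p = 0.00417). *Npnt*, nephronectin, was also lower, at 7.83, 5.89 and 20.9 FPKM against 45.1, 44.4 and 42.0 FPKM (ratio 0.263, limma, adjusted p = 0.0106). Without fragment replicate 2 its adjusted p was 0.0515 (limma). *Cyr61* (CCN1) was the other ligand that was lower, with a ratio of 0.308 (limma, adjusted p = 0.00633).

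*Fn1*, fibronectin, stood at 376, 333 and 388 FPKM in mural cells and at 420, 391 and 381 FPKM in fragments, with overlapping ranges (log2 fold change -0.12 ± 0.11, SE, limma, adjusted p = 0.502). In mural cells *Vtn* lay above *Fn1* in every library, and in fragments it lay below *Fn1* in every library. *Vwf*, the EC-made von Willebrand factor, stood at 91.3, 34.3 and 84.6 FPKM in mural cells and at 149, 124 and 149 FPKM in fragments (limma, adjusted p = 0.0598). The call as lower was met without mural cell replicate 1 (limma, adjusted p = 0.0420).

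**Figure D5:**
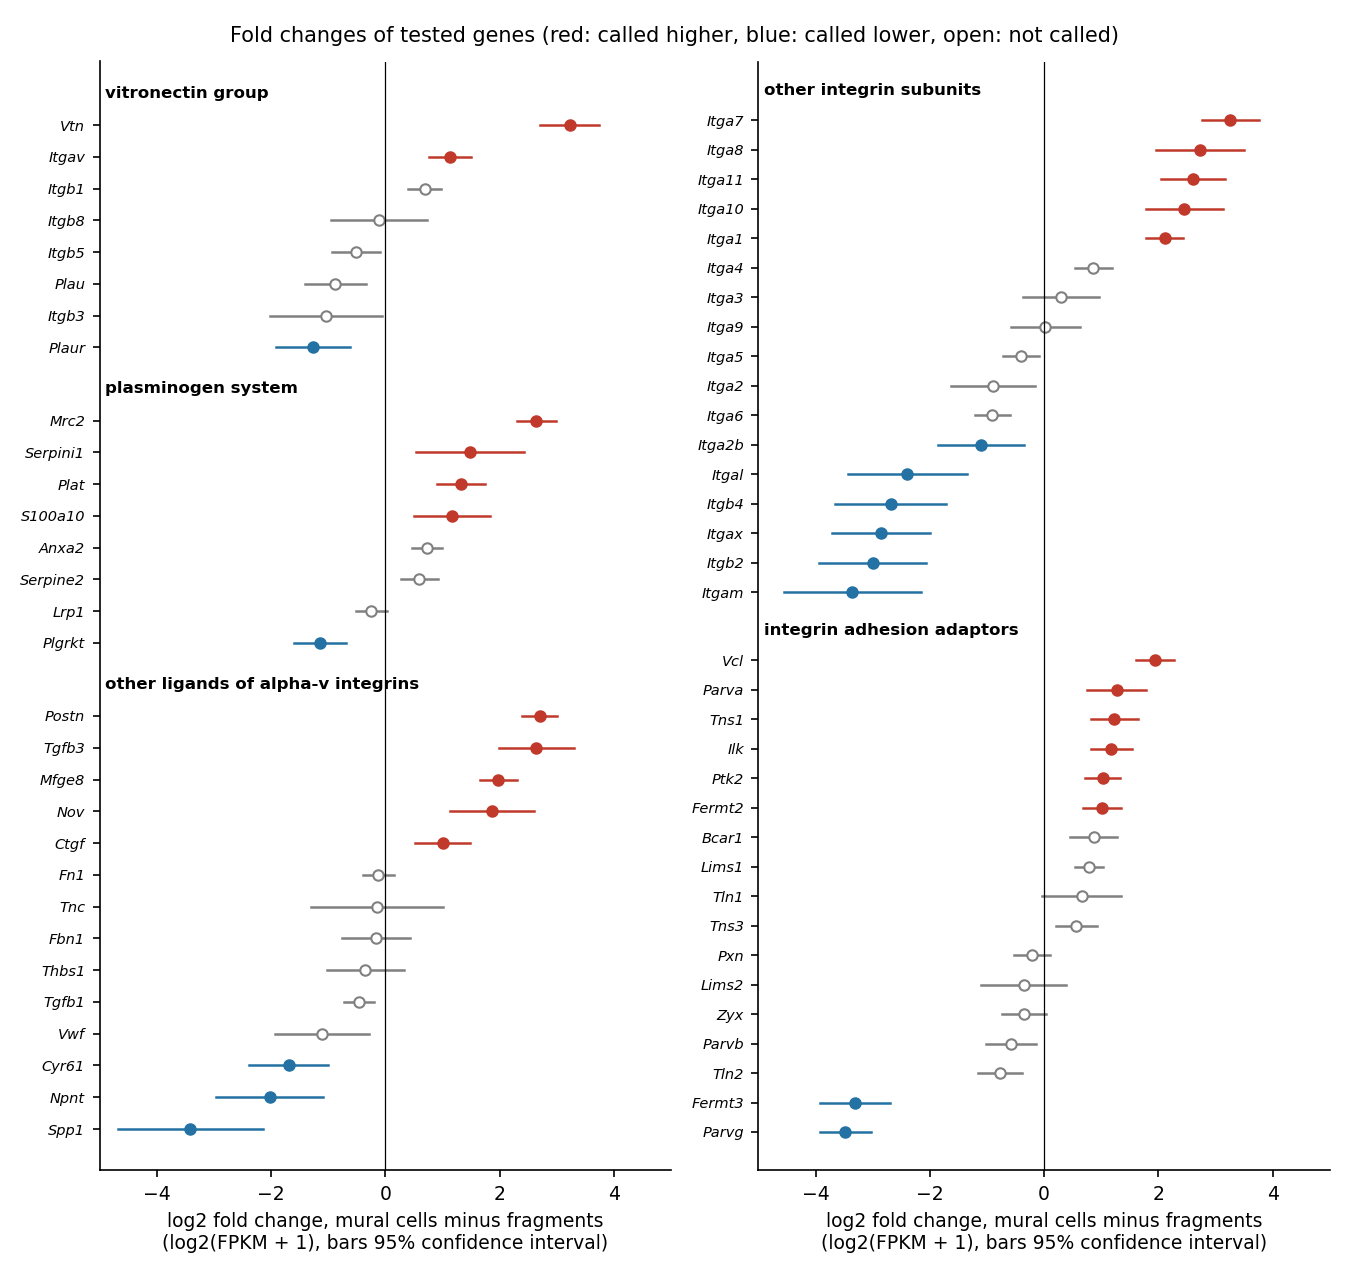
Log2 fold change of mural cells over fragments on the log2(FPKM + 1) scale with 95% confidence intervals for the 8 tested genes of the vitronectin group, 8 plasminogen system genes, 14 other ligands, 17 other integrin subunits and 17 adhesion adaptors, with filled symbols for genes called. *Vtn* at 3.22, *Itga7* at 3.26 and *Postn* at 2.70 lay farthest right in their lists, and *Itgam* at -3.36 and *Spp1* at -3.41 farthest left.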

How the data were processed

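RNA-seq libraries of 3 FACS sorted mural cell samples and 3 microvascular fragment samples were analysed, grouped by their labels. The authors deposited 1 FPKM value per Ensembl gene and library, made by aligning reads to NCBIM37 with TopHat2 2.0.4, removing duplicates with Picard 1.92 and computing FPKM with Cufflinks 2.2.1, according to the methods and the submitters' processing notes. Whether counting used strand is not given in the sources used here. Since FPKM are not counts, no count test was used. Removal of duplicates can lower the FPKM of abundant short genes in deep libraries.

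Values of log2(FPKM + 1) of the 14801 genes that reached an FPKM of 1 in 3 or more libraries were compared with limma (version 3.58.1, R 4.3.3), using an intensity trend. P-values were adjusted by the Benjamini-Hochberg method over all of these genes. Fold changes on this scale understate those of low genes. Shares and ratios were compared by exact two-sided permutation tests in SciPy 1.17.1. Fragment numbers were recovered from low values, of which 97.2 to 98.4% were whole multiples of 1 fragment (tolerance 0.05), and are approximate for genes with several transcripts. Other steps used Python 3.11.15, pandas 2.3.3 and NumPy 2.4.6, and the fit was tested on simulated data.

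Symbols and coordinates come from GENCODE M1 on NCBIM37. *Plgrkt* is listed there as *5033414D02Rik*. The genes and lists were chosen with earlier results of these data known. The text names the 9 genes, the called genes of each other list (the 6 with the largest log2 fold change where there are more) and its 4 most abundant. Other genes named beyond this rule to complete a count were chosen after their values were seen. For 1 of the 12 plasminogen system genes, which is included in the counts, no values are reported here. Protein sequences were not used here.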

Additional observations from a re-analysis of the deposited data

How the results depend on the processing

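Of all genes tested, 1493 were lower, and this became 845 at an adjusted p under 0.01, 948 with a filter at an FPKM of 5, and 988 to 1751 when each replicate was left out, the lowest without fragment replicate 3. Of the vitronectin group 1 gene was lower, with 0 at an adjusted p under 0.01 (*Plaur*, limma, adjusted p = 0.0162) and 0 to 2 when each replicate was left out. Of the plasminogen system 4 were higher, with 2 at an adjusted p under 0.01 and 2 to 4 when each replicate was left out, and 1 was lower, with 2 when no filter was used, which lets *Serpinf2* be tested. Of the other integrin subunits 6 were lower, with 4 at a pseudocount of 0.1 and 4 with the filter at an FPKM of 5. *Itgal* (limma, adjusted p = 0.0507) and *Itga2b* (0.0511) lost their calls at that pseudocount. *Itgax* and *Itgb4* were not tested under that filter. *Vtn* and *Itgav* were called higher under every alternative run, with log2 fold changes of 3.00 to 3.37 and 1.03 to 1.28 when each replicate was left out.

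Quantile normalization moved the median log2 fold change of all genes by 0.12 and the part of calls that were higher from 38.9% to 51.7%, while the *Itgb8* log2 fold change turned to 0.24. When each replicate was left out *Itgb8* ran from -0.44 to 0.16, its difference in share from -0.46 to 0.046 percentage points and that of *Itgb6* from -0.033 to 0 percentage points. The cause of these changes was not tested.

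The labels number samples 1 to 3 in both groups, but the correlations of deviations between same-numbered samples were 0.082, 0.020 and 0.045, so the numbers were not taken as pairs. Each mural cell sample correlated best with its own number, a hint from the data only. With the replicate block 900 genes were higher and 1344 lower. *Serpini1* (limma, adjusted p = 0.0718), *Itga2b* (0.0844) and *Plau* by its adjusted p (0.0523) no longer passed, and *Vwf* did (0.0283).

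Other alternatives were median-ratio scaling, pseudocounts of 0.1 and 5, no intensity trend, the 2-fold limit on the log2 scale and protein-coding genes only. Leaving out genes at 0 in all libraries of a group was added after seeing the data. Low fragment numbers in mural cells limit *Itgb3*, *Itgb6*, *Itgb8* and *Plaur*. Of the other lists they also limit *Plgrkt*, *S100a10*, *Itgax* and *Itgb4*.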

Other observations

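Proteins that link integrins to the cytoskeleton were examined as a further list of 18 genes, of which 17 were tested, 6 were called higher in mural cells and 2 lower. Of all genes tested 6.43% were called higher and 10.1% lower. The median log2 fold change of the 17 was 0.66, against -0.12 over all genes tested. *Vcl*, vinculin, stood at 172, 198 and 170 FPKM in mural cells and at 54.6, 43.7 and 40.6 FPKM in fragments (ratio 3.89, limma, adjusted p = 0.000187). *Ilk*, the integrin-linked kinase, stood at 215, 296 and 228 FPKM in mural cells and at 95.3, 119 and 109 FPKM in fragments (ratio 2.28, limma, adjusted p = 0.00187). Its binding partner *Parva*, α-parvin, had a ratio of 2.51 (limma, adjusted p = 0.00609), and *Tns1*, tensin 1, had a ratio of 2.33 (limma, adjusted p = 0.00274).

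*Fermt2*, kindlin 2, and *Ptk2*, focal adhesion kinase, had ratios of 2.01 and 2.06, so both lay just past the 2-fold limit. The ratio fell below it without fragment replicate 3 (1.87 and 2.00) or mural cell replicate 1 (1.95 and 1.95). *Tln1*, talin 1, was the most abundant of the list and varied among the mural cell libraries. It stood at 239, 583 and 364 FPKM against 251, 235 and 220 FPKM in fragments (limma, adjusted p = 0.159). Without mural cell replicate 1, the lowest of the 3, it met the call as higher (ratio 2.01, limma, adjusted p = 0.0230).

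The 2 that were lower were the blood cell forms of the same families. *Fermt3*, kindlin 3, stood at 6.14, 2.81 and 4.79 FPKM in mural cells and at 47.9, 48.1 and 63.5 FPKM in fragments (ratio 0.0862, limma, adjusted p = 0.000242). *Parvg*, γ-parvin, stood at 3.04, 2.22 and 2.62 FPKM in mural cells and at 34.8, 40.8 and 42.9 FPKM in fragments (ratio 0.0665, limma, adjusted p = 8.47e-05). The 8 microglia markers, with a median at 8.59% of the fragment level, were lower in the same libraries, and their part in these values was not tested.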
